A study of Mus musculus with 10 samples.

Results

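Tubulins and the enzymes that modify them were compared between Axin2+ and SP-C+ lung epithelial cells of the mouse. Members were all genes whose platform annotation gave a probe set exactly 1 symbol beginning with Tuba, Tubb or Tubg, or with Ttll or Agbl and a number. This gave 38 of the 22180 genes measured: 5 alpha-tubulin genes, 9 beta-tubulin genes (1 of them, Tubb2a-ps2, a pseudogene), 6 genes of gamma-tubulin and its complex, 13 Ttll genes and 5 Agbl genes. The rule goes by symbol alone, so the complex proteins encoded by the Tubgcp genes are counted although they are not tubulins.

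Expression was measured on 10 Affymetrix arrays, 5 per group. Axin2+ cells came from lungs of Axin2CreERT2-TdTom mice at postnatal day 4 and were sorted as TdTomato+, EpCAM+, CD31- and CD45-, with the reporter switched on by a Cre driven by Axin2, a target gene of Wnt signalling. SP-C+ cells came from SftpcCreERT2-R26REYFP mice of the same age and were sorted by YFP after 24 h of lineage tracing, with the Cre driven by the surfactant protein C gene; no tracing time is given for Axin2+ cells. Both groups were labelled as type 2 alveolar epithelial cells (AEC2s), the surfactant-producing cells of the alveolus. Their strain background was mixed from C57BL/6, 129S6 and CD-1. The gate given for Axin2+ cells names no AEC2 marker, and mouse line, reporter and gate differ between the groups together with the label, so these cannot be told apart. A description shared by all samples mentions other ages, while the titles and age labels say day 4. No label says whether replicates were separate animals, so p-values measure the spread between these samples.

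Microtubules are hollow fibres built from dimers of alpha- and beta-tubulin, each encoded by several genes (isotypes), and they are seeded by ring complexes of gamma-tubulin. Their outward-facing tails carry removable marks. Enzymes of the Ttll family add glutamate or glycine side chains, cytosolic carboxypeptidases of the Agbl family trim glutamates away again, and the shafts of motile cilia are among the most heavily marked microtubules of the body. In lung, motile cilia belong to the multiciliated cells of the airways, whereas dividing cells of any type need tubulin for the mitotic spindle.

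Axin2 RNA itself was lower in the arrays labelled Axin2+, in the brighter of its 2 probe sets, the only one given here. It measured 8.12, 7.90, 7.86, 7.82 and 7.96 in Axin2+ arrays and 8.38, 8.53, 8.49, 8.41 and 8.51 in SP-C+ arrays. Every Axin2+ array was thus lower than every SP-C+ array (difference -0.53, adjusted p = 3.28e-04 in limma), and the group names used here are those of the labels. Sftpc, the surfactant protein C gene, averaged 14.11 in Axin2+ and 14.02 in SP-C+ arrays and did not pass (adjusted p = 0.324). Its lowest Axin2+ value, 14.08, was still above its highest SP-C+ value, 14.05. All of these lay close to 14.16, the highest value measured on any array, so the missing call cannot show equal Sftpc expression. All 18 measured AEC2 markers lay above the median gene of the arrays in both groups, with list means of 12.79 to 12.94 in Axin2+ arrays and 12.95 to 13.09 in SP-C+ arrays on the log2 scale. These list means did not overlap, and 0 of the 18 were called higher and 3 lower. Markers of other epithelial types and of dividing cells also differed between the groups. The mean of 23 ciliated cell markers lay between 7.83 and 8.16 in Axin2+ arrays and between 5.52 and 5.66 in SP-C+ arrays (20 markers called higher, 1 lower), and 21 of these markers exceeded the median gene on average in Axin2+ arrays, against 5 in SP-C+ arrays. The mean of 19 markers of flat type 1 alveolar cells (AEC1s) lay between 11.21 and 11.58 in Axin2+ arrays and between 8.90 and 9.47 in SP-C+ arrays (19 called higher). The mean of 25 cell cycle genes lay between 7.49 and 8.51 in Axin2+ arrays and between 6.74 and 7.73 in SP-C+ arrays (15 called higher). Of 7 markers of airway club cells 5 were higher and 0 lower (list means 7.80 to 8.29 in Axin2+ and 6.39 to 6.88 in SP-C+ arrays), and of 8 neuroendocrine markers 4 were higher and 0 lower (5.66 to 5.75 in Axin2+ and 5.31 to 5.44 in SP-C+ arrays). On average, 1 of these neuroendocrine markers exceeded the median gene in Axin2+ arrays and 0 did in SP-C+ arrays. The ranges of the endothelial, leukocyte, mesenchymal and platelet list means overlapped between the groups, with at most 1 marker of each called in either direction. In RNA from sorted pools, a larger share of cells of one type and more RNA per cell cannot be told apart.

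Of the 38 members, 11 (28.9%) were higher and 2 (5.26%) lower in Axin2+ than in SP-C+ cells at a Benjamini-Hochberg adjusted p under 0.05 in limma, a linear model fitted to all genes. Over all 22180 genes these shares were 8.61% and 8.95%. Calls were more frequent among bright genes. When only the 11090 genes above the 50th percentile were fitted, 1605 were higher and 2177 lower, among them 13 members higher and 2 lower. The median difference of the members was 0.20 on the log2 scale, against -0.04 over all genes. The rises were Tuba1a, Tuba8, Tubb5, Ttll3, Ttll4, Ttll5, Ttll6, Ttll9, Agbl2, Agbl3 and Agbl4, and the falls were Tuba1c and Tubb2a. Only Tuba1a, Ttll6 and Agbl2 rose by at least 2-fold, a size passed by 2.89% of all genes, and no member fell by that much (0.338% of all genes). The groups did not overlap for 10 members that were higher (7.38% of all genes) and 2 that were lower (7.66% of all genes), together 31.6% of the members against 15.0% of all genes. The cell cycle genes of SP-C+ replicates 1, 2 and 3 were lower than those of SP-C+ replicates 4 and 5. Fits without either set were added after the data were seen and used fewer arrays. The part of cell cycle differences in them was not tested. Without SP-C+ replicates 1, 2 and 3, no member was called lower in limma (6.02% of all genes were), and 1 was lower at an unadjusted p under 0.05. Without SP-C+ replicates 4 and 5, 4 members were called lower, with 9.82% of all genes.

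**Figure D1:**
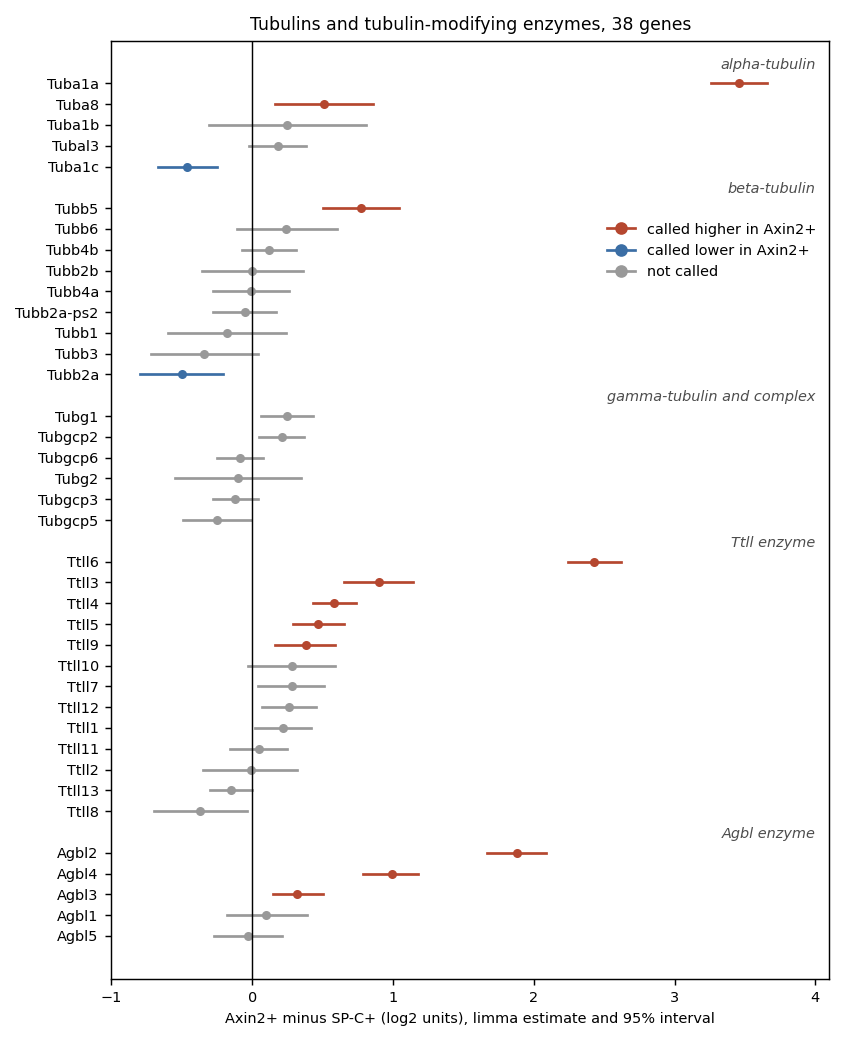
Difference between Axin2+ and SP-C+ arrays for each of the 38 members, grouped by role (x axis in log2 units; points are limma estimates and lines 95% intervals, 5 arrays per group). Tuba1a, Ttll6 and Agbl2 lie far to the right of 0, 8 further members are called higher and 2 lower, and the gamma-tubulin genes lie within 0.25 of 0.

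Promoter sequences are shown because several of the raised members hold in their promoters a match to the same short motif. RefSeq windows of 300 bases around a transcription start (build GRCm38.p6) were found for 31 of the 38 members (36 windows, since a gene can have several starts), including all 13 called ones. The searched motifs, on both strands, were GTTGCC, the core of the site bound by RFX factors, which regulate ciliary genes, and GTAAACA, a site of forkhead factors, the family of the ciliary regulator Foxj1. GTTGCC was found for 6 of the 11 members called higher (Agbl2, Agbl3, Ttll3, Ttll5, Ttll9 and Tuba8), for 1 of the 2 called lower (Tuba1c) and for 2 of the 18 uncalled members with a window (Ttll8 and Ttll10). Among all genes with a RefSeq window 14.1% held it, as did 12.5% of all 32851 windows. Windows of the members called higher had a median GC content of 56.3%, those of the other members 60.0% and all windows 52.7%. The windows of Tuba1a, Ttll4, Ttll6, Tubb5 and Agbl4 held no such letters. GTAAACA was found for 0 of the 11 members called higher and 3 of the 18 uncalled ones (4.05% of all genes).

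The window of Agbl2 that holds its match, 1 of 2 windows of this gene, is given because Agbl2 was the most raised member with a match, with GTTGCC in capitals (chr2:90782477-90782776, plus strand). Its match begins 80 bases before the transcription start.
Agbl2: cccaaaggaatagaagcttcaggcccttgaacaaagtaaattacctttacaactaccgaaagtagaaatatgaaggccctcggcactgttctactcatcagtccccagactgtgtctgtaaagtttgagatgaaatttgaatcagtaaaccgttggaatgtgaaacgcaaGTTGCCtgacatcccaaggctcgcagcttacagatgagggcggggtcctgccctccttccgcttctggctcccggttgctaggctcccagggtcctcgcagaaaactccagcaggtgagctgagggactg

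Stretches of 30 bases around further matches let the surrounding letters be compared, with GTTGCC or its reverse complement in capitals. They are from chr6:34780403-34780432 (Agbl3, plus strand), chr2:152962462-152962491 (Ttll9, plus strand), chr6:113392386-113392415 (Ttll3, plus strand), chr12:85824678-85824707 (Ttll5, plus strand) and chr15:88954629-88954658 (Ttll8, minus strand).
Agbl3: gtacagccGTTGCCctGGCAACaagcggcc
Ttll9: acacctcctttgGTTGCCgtagcaacgaga
Ttll3: tgattgtgcctgGGCAACagtctcctagga
Ttll5: tgccaatcagcaGTTGCCgccgcctgagcc
Ttll8: caggcgagggcgGTTGCCctgagcaaccgc

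In the Agbl3 promoter the motif and its reverse complement face each other, with starts 8 bases apart and 21 and 13 bases before the transcription start. The Ttll9 match shown begins 11 bases before the start, that of Ttll3 65 bases, that of Ttll5 230 bases and that of Ttll8 228 bases before it. Ttll8 is shown as an uncalled member that also holds a match. In the other such member, Ttll10, 2 copies start 14 bases apart, the first of them 13 bases before the transcription start. The match of Tuba1c, called lower, begins 145 bases before its start. Paired matches and matches close to the start were thus not limited to members called higher. A match says only that the letters are present.

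Alpha-tubulin genes moved in both directions, and the largest difference of all members was that of Tuba1a, an isotype best known from developing neurons. Tuba1a measured 10.63, 10.45, 10.69, 10.42 and 10.68 in Axin2+ replicates 1 to 5 and 7.07, 6.97, 7.35, 7.11 and 7.06 in SP-C+ replicates 1 to 5. Every Axin2+ array lay far above every SP-C+ array, and the arrays of each group lay close together. The difference was 3.46 ± 0.09 (SE), or 11.0-fold (adjusted p = 1.95e-10 in limma, n = 5 per group). With 5 against 5 arrays an exact permutation test cannot go below 0.00794, which Tuba1a reached. Tuba1a thus moved in the same arrays as the ciliated, AEC1, club and neuroendocrine lists, whose part in the result was not tested.

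Tuba1c, a widely expressed isotype, was lower in Axin2+ cells. It measured 8.63, 8.57, 8.64, 8.84 and 8.68 in Axin2+ arrays and 9.41, 9.02, 9.21, 9.09 and 8.91 in SP-C+ arrays. The groups lay close but did not overlap. The difference was -0.46 ± 0.10 (adjusted p = 0.00571 in limma). Leaving out SP-C+ replicates 1, 2 and 3 gave -0.33 and no call (adjusted p = 0.0655), the mean over both probe sets gave -0.20 (0.23), and the second Tuba1c probe set differed by 0.05 (adjusted p = 0.898 over all probe sets).

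Tuba1b, the third of these common isotypes, averaged 8.17 ± 0.41 in Axin2+ arrays and 7.92 ± 0.57 in SP-C+ arrays (SD, n = 5), and the difference of 0.25 had a 95% interval of -0.31 to 0.81 that did not pass. It had the widest spread of all members in SP-C+ arrays, with values between 7.21 and 8.67. In the RefSeq gene table (GRCm38.p6) Tuba1b, Tuba1a and Tuba1c follow each other on chromosome 15 with no other protein-coding gene between them, so 3 neighbouring genes had differences of 0.25, 3.46 and -0.46. Their coding sequences are closely related, and signal of one on the probes of another cannot be told apart here.

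Tuba8, an isotype described in muscle and testis, averaged 8.52 ± 0.14 in Axin2+ and 8.01 ± 0.39 in SP-C+ arrays. Its difference of 0.51 ± 0.16 passed narrowly (adjusted p = 0.0476 in limma), the groups overlapped, and the call ended in 13 of 20 alternative settings (adjusted p up to 0.262). The value was 0.25 without SP-C+ replicates 4 and 5, which were the lowest at 7.44 and 7.82, it was 0.89 without replicates 1, 2 and 3, and the second Tuba8 probe set differed by -0.08 (adjusted p = 0.762). Tubal3, an alpha-tubulin-like gene with dim signal, differed by 0.18 (95% interval -0.02 to 0.38) and did not pass.

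**Figure D2:**
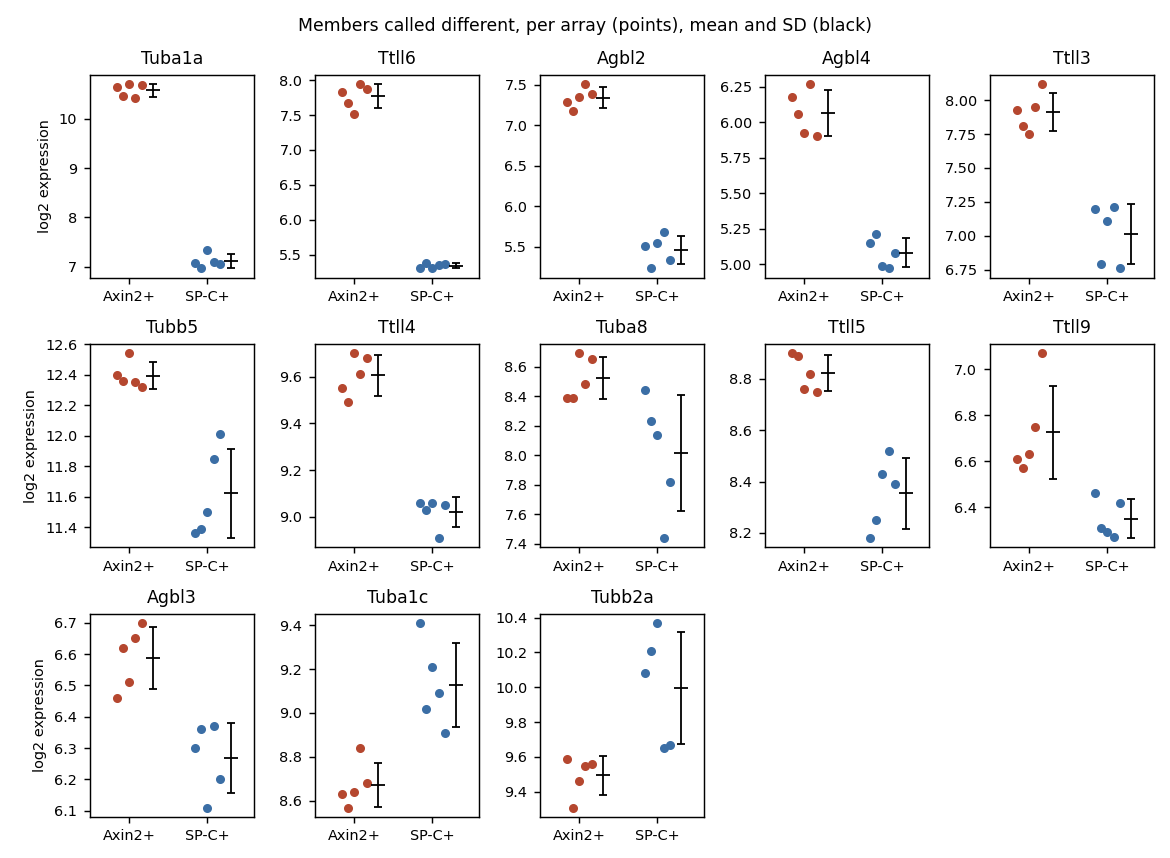
Log2 expression of the 13 called members in each array (points; Axin2+ left, SP-C+ right; black bars are the mean and SD of 5 arrays, and each panel has its own axis). Tuba1a, Ttll6 and Agbl2 show wide gaps between the groups, Tuba8 overlaps, and Tubb5 and Tubb2a are split among the SP-C+ arrays.

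Among beta-tubulin genes, Tubb5, the main isotype of many dividing cells, was raised and Tubb2a was lower, while 7 of 9 did not pass. These shares, 11.1% higher and 11.1% lower, were near the 8.61% and 8.95% of all genes. Tubb5 measured 12.40, 12.36, 12.54, 12.35 and 12.32 in Axin2+ arrays and 11.36, 11.39, 11.50, 11.85 and 12.01 in SP-C+ arrays. The Axin2+ arrays lay close together above all SP-C+ arrays, of which replicates 4 and 5 came nearest to them. The difference was 0.77 ± 0.12, or 1.71-fold (adjusted p = 7.91e-04 in limma). It was 0.46 without SP-C+ replicates 1, 2 and 3 and 0.98 without replicates 4 and 5, and it passed in both cases. The mean of the cell cycle list was 6.81, 6.82 and 6.74 in SP-C+ replicates 1, 2 and 3 and 7.51 and 7.73 in replicates 4 and 5, against 8.51, 8.32, 8.01, 7.87 and 7.49 in Axin2+ arrays. Mki67, a marker of dividing cells, likewise measured 9.97, 9.68, 9.34, 9.04 and 8.32 in Axin2+ arrays and 7.15, 6.75, 6.65, 8.32 and 8.67 in SP-C+ arrays. The part of cell cycle differences in the Tubb5 result was not tested.

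Tubb2a, an isotype widespread in neurons, ran the other way. It measured 9.59, 9.31, 9.46, 9.55 and 9.56 in Axin2+ arrays and 10.08, 10.21, 10.37, 9.65 and 9.67 in SP-C+ arrays. SP-C+ replicates 4 and 5 lay next to the Axin2+ arrays and the other 3 well above them, with no overlap between the groups. The difference was -0.50 ± 0.14 (adjusted p = 0.0223 in limma). Leaving out SP-C+ replicates 1, 2 and 3 gave -0.17 and no call (adjusted p = 0.342), and the call also ended without Axin2+ replicate 2 (adjusted p = 0.0574), Axin2+ replicate 3 (0.0525) or SP-C+ replicate 2 (0.0562), or with the replicate number as a block (0.0536).

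The remaining beta-tubulin genes gave no call. Tubb4b, an isotype of ciliary shafts and of many other cells, averaged 8.03 ± 0.12 in Axin2+ and 7.91 ± 0.13 in SP-C+ arrays and differed by 0.12, with a 95% interval of -0.07 to 0.31. Tubb2b, which follows Tubb2a on chromosome 13 with no protein-coding gene between, averaged 8.37 in both groups (95% interval of the difference -0.36 to 0.36). Tubb6 differed by 0.24 (-0.11 to 0.60). The neuronal isotype Tubb3 and the platelet isotype Tubb1 lay below the median gene in all 10 arrays and differed by -0.34 (-0.72 to 0.04) and -0.18 (-0.60 to 0.24). Tubb1 was at -0.52 and passed without SP-C+ replicates 4 and 5 (adjusted p = 0.0117), while leaving out replicates 1, 2 and 3 turned its sign to 0.32 (0.159). Tubb4a, known from neurons and oligodendrocytes, differed by -0.01, and the pseudogene Tubb2a-ps2, by -0.05.

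**Figure D3:**
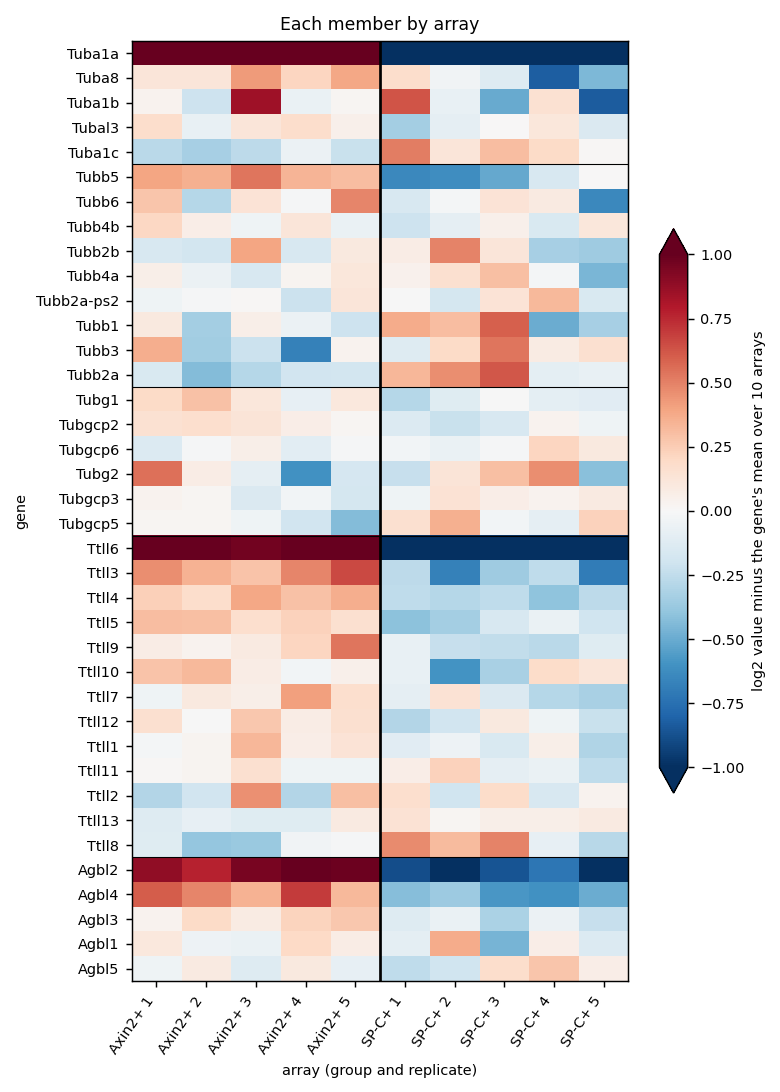
Log2 value of each member in each array minus the mean of that gene over the 10 arrays (colour, capped at 1 either way; rows are genes grouped by role, columns are arrays with Axin2+ on the left). Tuba1a, Ttll6 and Agbl2 split cleanly between the groups, whereas Tubb2a, Tubb1 and Ttll8 are higher in SP-C+ replicates 1, 2 and 3 than in replicates 4 and 5.

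None of the 6 genes of gamma-tubulin and its complex passed the threshold in limma, and 3 of them had an unadjusted p under 0.05, as had 29.3% of all genes. Tubg1, the main gamma-tubulin gene, measured 9.74, 9.84, 9.66, 9.46 and 9.65 in Axin2+ arrays and 9.26, 9.42, 9.54, 9.45 and 9.43 in SP-C+ arrays. All but 1 of the Axin2+ arrays lay above every SP-C+ array. Its difference was 0.25 ± 0.09 (adjusted p = 0.0639), and it passed in 5 of 20 alternative settings, among them quantile normalization (adjusted p = 0.0422) and leaving out Axin2+ replicate 4 (0.0332). Tubgcp2, a subunit of the small gamma-tubulin complex, differed by 0.21 ± 0.07 (adjusted p = 0.068) and also passed in 5 of 20. Its partner subunit Tubgcp3 was at -0.12 (95% interval -0.28 to 0.04). Of the subunits of the larger ring, Tubgcp5 was at -0.25 (-0.49 to -0.01, adjusted p = 0.159) and Tubgcp6 at -0.09 (-0.25 to 0.08). Tubg2, the second gamma-tubulin gene, which follows Tubg1 on chromosome 11, had dim signal and differed by -0.10 (-0.55 to 0.35).

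Of the 13 Ttll genes, 5 rose and 0 fell, against 8.61% and 8.95% of all genes, and 9 had an unadjusted p under 0.05 (29.3% of all genes). The largest rise was that of Ttll6, which encodes an enzyme that lengthens glutamate chains on alpha-tubulin in cilia. Ttll6 measured 7.83, 7.68, 7.52, 7.95 and 7.87 in Axin2+ arrays and 5.30, 5.38, 5.30, 5.35 and 5.36 in SP-C+ arrays. The SP-C+ arrays lay within 0.08 of each other and below the median gene, and all Axin2+ arrays were above it. The difference was 2.43 ± 0.09, or 5.40-fold (adjusted p = 9.70e-10 in limma). Foxj1, the regulator of motile cilia, measured 8.59, 8.48, 8.62, 8.99 and 9.10 in Axin2+ arrays and 6.40, 7.02, 7.10, 6.47 and 6.26 in SP-C+ arrays, so it was also apart between the groups. The part of the ciliated cell markers in the result was not tested.

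The other glutamylase genes that rose did so by smaller amounts. Ttll4, whose enzyme starts glutamate chains mainly on beta-tubulin, measured 9.55, 9.49, 9.70, 9.61 and 9.68 in Axin2+ arrays and 9.06, 9.03, 9.06, 8.91 and 9.05 in SP-C+ arrays. The groups were cleanly apart although the difference was only 0.58 ± 0.07 (adjusted p = 7.79e-05). Ttll5, whose enzyme starts chains on alpha-tubulin, averaged 8.82 ± 0.07 in Axin2+ and 8.36 ± 0.14 in SP-C+ arrays and rose by 0.47 ± 0.08 (adjusted p = 0.00135). Ttll9, a glutamylase gene of sperm flagella in the mouse, averaged 6.73 ± 0.20 in Axin2+ and 6.35 ± 0.08 in SP-C+ arrays and rose by 0.38 ± 0.10 (adjusted p = 0.0187). When SP-C+ replicates 1, 2 and 3 were dropped, Ttll9 stayed at 0.38 but lost its call (adjusted p = 0.116). When replicates 4 and 5 were dropped, Ttll9 stayed at 0.37, again uncalled (0.0514). Both fits used fewer arrays. The mean over both Ttll9 probe sets gave 0.15 and no call (0.162), and the second probe set differed by -0.07.

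Ttll1, the catalytic subunit of a brain and sperm polyglutamylase complex, averaged 8.97 ± 0.14 in Axin2+ and 8.75 ± 0.13 in SP-C+ arrays and did not pass (difference 0.22, adjusted p = 0.122). Ttll7, another glutamylase gene prominent in neurons, was at 0.28 (adjusted p = 0.102) and passed without SP-C+ replicate 2 (0.0374) or replicates 1, 2 and 3 (0.44, adjusted p = 0.0439), while it was at 0.17 without replicates 4 and 5. Ttll11 and Ttll13, genes of further glutamylases, were at 0.05 (95% interval -0.16 to 0.25) and -0.15 (-0.30 to 0.00). Ttll12, a family member for which no ligase activity is established, was at 0.26 (adjusted p = 0.0649) and passed in 5 of 20 alternative settings. Ttll2 had dim signal and was at -0.01.

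Of 3 glycylase genes 1 passed. Ttll3 and Ttll8 both encode enzymes that start glycine side chains on tubulin, and Ttll10 one that lengthens them. Ttll3 measured 7.93, 7.81, 7.75, 7.95 and 8.12 in Axin2+ arrays and 7.20, 6.79, 7.11, 7.21 and 6.76 in SP-C+ arrays, with no overlap. It rose by 0.90 ± 0.11, or 1.86-fold (adjusted p = 9.03e-05 in limma). Ttll8 measured 6.28, 6.02, 6.03, 6.37 and 6.39 in Axin2+ arrays and 6.88, 6.72, 6.90, 6.32 and 6.13 in SP-C+ arrays, where replicates 4 and 5 lay among the Axin2+ arrays. Its difference of -0.37 (95% interval -0.70 to -0.04) did not pass (adjusted p = 0.12), whereas leaving out SP-C+ replicates 4 and 5 gave -0.61 with a call (0.00303), leaving out replicate 5 alone gave -0.49 with a call (0.0255), and leaving out replicates 1, 2 and 3 gave -0.01. Ttll10 differed by 0.28 (-0.03 to 0.59) and passed only without SP-C+ replicates 4 and 5 (0.48, adjusted p = 0.0255) among the settings run, and was at -0.02 without replicates 1, 2 and 3.

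Of the 5 Agbl genes, which encode the carboxypeptidases that remove glutamates, 3 rose and 0 fell, against 8.61% and 8.95% of all genes. Agbl2 measured 7.29, 7.17, 7.35, 7.51 and 7.38 in Axin2+ arrays and 5.51, 5.23, 5.54, 5.68 and 5.34 in SP-C+ arrays. All Axin2+ arrays lay above the median gene and all SP-C+ arrays below it. The difference was 1.88 ± 0.10, or 3.68-fold (adjusted p = 3.03e-08 in limma). Agbl4 averaged 6.07 ± 0.16 in Axin2+ and 5.08 ± 0.10 in SP-C+ arrays, both below the median gene, and rose by 0.99 ± 0.09 (adjusted p = 5.53e-06). Agbl3 averaged 6.59 ± 0.10 in Axin2+ and 6.27 ± 0.11 in SP-C+ arrays and rose by 0.32 ± 0.08 (adjusted p = 0.0141). When SP-C+ replicates 1, 2 and 3 were dropped, its estimate stayed at 0.31, but with fewer arrays the call ended (0.0785).

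Agbl5, whose enzyme removes the glutamate at the branch point of a side chain, measured 8.93, 9.06, 8.84, 9.07 and 8.89 in Axin2+ arrays and 8.72, 8.77, 9.15, 9.25 and 9.04 in SP-C+ arrays. The Axin2+ values lay inside the SP-C+ range. The difference was -0.03 with a 95% interval of -0.27 to 0.21. Agbl1, with dim signal, was at 0.10 (-0.18 to 0.39). Genes that add glutamates (Ttll4, Ttll5, Ttll6 and Ttll9) and genes that remove them (Agbl2, Agbl3 and Agbl4) were higher in the same Axin2+ arrays.

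**Figure D4:**
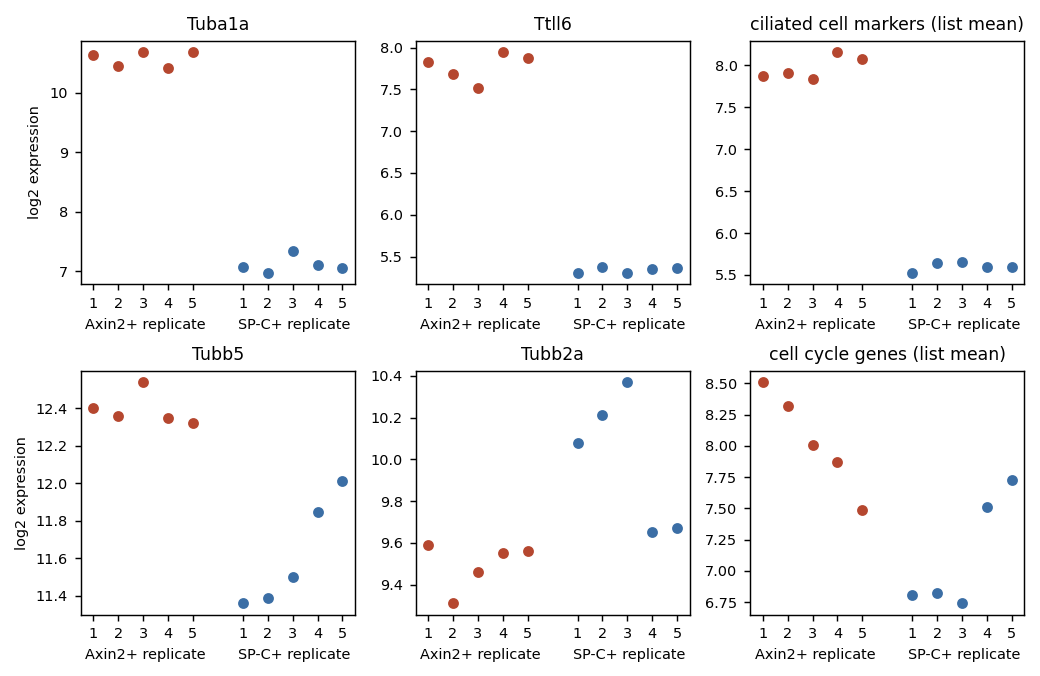
Log2 expression in each array (x axis: replicate 1 to 5 of Axin2+ at the left and of SP-C+ at the right of each panel; each panel has its own axis) of 4 members beside the mean of 23 ciliated cell markers and of 25 cell cycle genes. Tuba1a and Ttll6 are flat within SP-C+ arrays, as is the ciliated list, while Tubb5, Tubb2a and the cell cycle list set SP-C+ replicates 4 and 5 apart from 1, 2 and 3. Within Axin2+ arrays the cell cycle list falls from 8.51 in replicate 1 to 7.49 in replicate 5, while Tubb5 stays between 12.32 and 12.54.

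The SD was larger among SP-C+ than among Axin2+ arrays for 26 of the 38 members. For 29 members the larger of the ranges within a group exceeded the difference between the groups. Among the exceptions were Tuba1a (ranges 0.27 in Axin2+ and 0.38 in SP-C+ arrays), Ttll6 (0.43 and 0.08) and Agbl2 (0.35 and 0.44), the 3 members with the largest differences. Ranges over 1 were found for Tuba1b in both groups (1.05 and 1.46), for Tubg2 (1.16) and Tubb3 (1.04) in Axin2+ arrays and for Tubb1 (1.09) and Tuba8 (1.01) in SP-C+ arrays. The counts of 26 and 29 members were not taken over all genes, so neither can be called particular to the members.

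A second probe set was available for 6 members, which gives a check within the arrays. The second Tuba1a probe set measured 6.53, 6.62, 7.33, 6.86 and 6.84 in Axin2+ arrays and 5.36, 5.21, 5.27, 5.19 and 5.04 in SP-C+ arrays, with no overlap. It rose by 1.62 ± 0.14 (adjusted p = 1.46e-05 over all probe sets), so the direction held and the size was smaller. The second Tubb5 probe set rose by 0.64 ± 0.13 (adjusted p = 0.00898), close to the first. Calls of Tuba8, Ttll9 and Tuba1c were not seen in their second probe sets, and Tubb2b was not called in either. A further 6 probe sets carry a family symbol beside another symbol. They were not used for members, and 0 of them passed or had an unadjusted p under 0.05 in limma, with differences between -0.16 and 0.16.

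**Figure D5:**
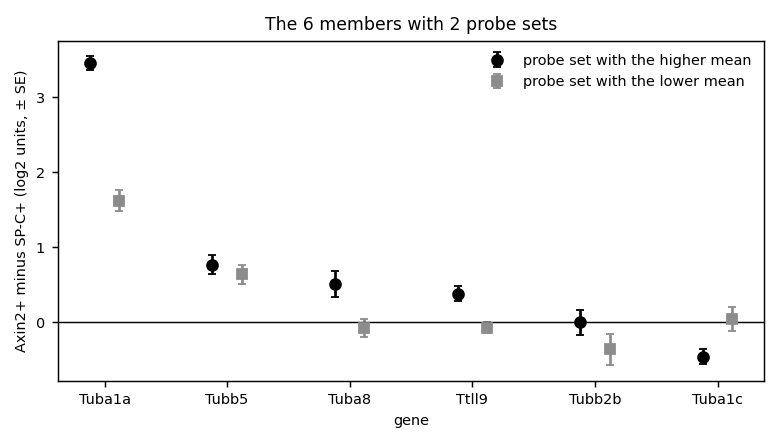
Difference between Axin2+ and SP-C+ arrays (y axis, log2 units, with SE; 5 arrays per group) for both probe sets of the 6 members that have 2. Both probe sets of Tuba1a and Tubb5 lie above 0, whereas for Tuba8, Ttll9 and Tuba1c the dimmer probe set lies near 0.

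Genes that act on tubulin but fall outside the family were taken as 6 lists with 86 genes, of which 80 were measured. Of these, 17 (21.2%) were higher and 5 (6.25%) lower in Axin2+ cells, against 8.61% and 8.95% of all genes, with a median difference of 0.03. Among 12 other genes of tubulin modification 4 rose and 0 fell. Ttl, whose enzyme returns the terminal tyrosine to alpha-tubulin, averaged 8.35 ± 0.18 in Axin2+ and 7.42 ± 0.21 in SP-C+ arrays and rose by 0.93 ± 0.11 (adjusted p = 8.77e-05). Lrrc49, a subunit of the polyglutamylase complex around Ttll1, rose by 0.75 ± 0.13 (adjusted p = 0.0016). Tube1, the epsilon-tubulin gene needed for centriole triplets, rose by 0.53 ± 0.13 (adjusted p = 0.0158), with overlapping groups and no call without SP-C+ replicates 1, 2 and 3 (0.235) or with the replicate block (0.0615).

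Among 24 genes of microtubule-binding proteins 7 rose and 1 fell (29.2% and 4.17%, against 8.61% and 8.95% of all genes). Map6, which encodes a stabilizer of microtubules, averaged 7.91 ± 0.37 in Axin2+ and 5.64 ± 0.26 in SP-C+ arrays and rose by 2.27 ± 0.17 (adjusted p = 9.46e-07 in limma). Map2, best known from dendrites, averaged 7.25 ± 0.17 in Axin2+ and 5.71 ± 0.08 in SP-C+ arrays and rose by 1.55 ± 0.09 (adjusted p = 8.45e-08). Both lay above the median gene in all Axin2+ arrays and in none of the SP-C+ arrays. Camsap3, which encodes a binder of microtubule minus ends in epithelia, was at -0.35 ± 0.11 (adjusted p = 0.0393) and lost its call when any of 8 single arrays was left out, among other settings.

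Of 20 tubulin-folding genes 2 rose and 1 fell, shares near those of all genes. Tbcel, a relative of the folding cofactor E, measured 9.48, 9.41, 9.36, 9.45 and 9.42 in Axin2+ arrays and 10.24, 10.20, 10.14, 10.02 and 10.12 in SP-C+ arrays, the cleanest fall among these lists. Its difference was -0.72 ± 0.07 (adjusted p = 8.21e-06). The chaperonin subunit genes Cct3 and Cct6a were at 0.45 and 0.38, and Cct6a passed narrowly (adjusted p = 0.0368) and lost its call in most settings run, among them the mean over its probe sets (0.452), the replicate block (0.0726) and median centring (0.0542). Of 17 genes of gamma-tubulin recruitment 1 rose and 3 fell (5.88% and 17.6%, against 8.61% and 8.95% of all genes). Among the falls were the centrosomal scaffold genes Pcnt (-0.43 ± 0.10) and Nin (-0.48 ± 0.11), and Haus5 of the augmin complex was at 0.46 ± 0.12. Leaving out SP-C+ replicates 1, 2 and 3 ended the calls of Nin (adjusted p = 0.159) and Haus5 (0.31), and Haus5 also lost its call with the replicate block (0.0719) and without Axin2+ replicate 1 (0.0541) or 3 (0.0565). Of 5 severing enzyme genes 2 rose and 0 fell (40.0% and 0%), with Katnal2 at 0.48 ± 0.12 and Fignl1 at 1.06 ± 0.28. Fignl1 spread between 5.69 and 7.25 in Axin2+ arrays and between 4.93 and 5.70 in SP-C+ arrays and was not called without SP-C+ replicates 1, 2 and 3 (0.69, adjusted p = 0.298).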

How the data were processed

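Gene expression was measured on Affymetrix arrays in 10 samples, 5 Axin2+ and 5 SP-C+, from 100 ng of total RNA each, per the labels' protocols. The authors deposited log2 values of 41345 probe sets (base 2 taken from their range, 1.69 to 14.16), and oligo, RMA and limma are named without versions, per the submitters' processing notes. RMA values understate changes of dim genes. Genes were named from the platform annotation through the 23521 probe sets with 1 symbol, keeping the probe set with the highest mean per gene, which left 22180 genes. Signals of different probe sets are not comparable as amounts. Differences were fitted in limma 3.58.1 under R 4.3.3 (lmFit, eBayes, no covariates, two-sided, Benjamini-Hochberg over all genes, threshold 0.05), which was tested on simulated data. Single values were also tested by exact permutation, two-sided. The median gene lay between 6.27 and 6.43 over the arrays.

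Members and lists were chosen with earlier results of these data known. Values in every array were planned for called members differing by at least 1 (log2), for called falls and for the highest mean of each role. From other lists the 2 largest called rises and falls were to be named. Values of Ttll3 and Ttll8 in every array, and the 30-base stretches, were added after their values were seen. Same-numbered arrays of the 2 groups were not paired in the data (correlations of their deviations between -0.229 and 0.0135), nor by the labels. The number of arrays limits the precision. Alternatives were a replicate block, median centring, quantile normalization, the mean over probe sets, filters at the 25th and 50th percentile, a variance trend, array weights, leaving out each array, stricter thresholds and, added after the data were seen, leaving out SP-C+ replicates 1, 2 and 3 or 4 and 5, and the dimmer probe set. No protein sequences were used here.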

Additional observations from a re-analysis of the deposited data

Results flagged for a closer look

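In 3 of 76 groups of 5 values examined (38 members in 2 groups), 1 array lay far from the other 4, where chance alone flags about 1 group in 20. Tuba1b measured 8.89 in Axin2+ replicate 3, against 8.08 in the next highest Axin2+ array. Ttll4 measured 8.91 in SP-C+ replicate 4, against 9.03 in the next lowest SP-C+ array, a gap far smaller than its difference of 0.58 between the groups. Ttll13 measured 6.16 in Axin2+ replicate 5, against 5.99 in the next highest Axin2+ array.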

How the results depend on the processing

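Of the 13 called members, 8 (Tuba1a, Tubb5, Ttll3, Ttll4, Ttll5, Ttll6, Agbl2 and Agbl4) kept their call and direction in every one of up to 20 settings run at the main threshold, and 5 lost it in at least 1. Of the 25 uncalled members, 7 passed in at least 1 of these settings. The stricter thresholds are not among them, and Ttll4 (narrowly, at 0.58) and Ttll5 (0.47) did not reach a 1.5-fold difference. Members called higher numbered 11, 6 with at least a 1.5-fold difference, and between 10 and 12 when 1 array was left out. Members called lower numbered 2, 1 with the replicate block, the mean over probe sets or an adjusted p under 0.01, 0 with at least a 1.5-fold difference or without SP-C+ replicates 1, 2 and 3, 4 without SP-C+ replicates 4 and 5, and between 1 and 3 when 1 array was left out. Other genes that act on tubulin numbered 17 higher (11 at an adjusted p under 0.01, 7 with at least a 1.5-fold difference, 11 without SP-C+ replicates 1, 2 and 3, and 15 to 20 when 1 array was left out) and 5 lower (3 at an adjusted p under 0.01, 1 with at least a 1.5-fold difference, and 4 to 6 when 1 array was left out). The sign turned in the dimmer probe sets of Ttll9 (-0.07), Tuba8 (-0.08) and Tuba1c (0.05), none of them called, and the cause was not tested. The replicate block, under which Tubb2a and Tuba8 lost their calls (adjusted p = 0.0536 and 0.0714), rests on numbers that no label ties to shared animals or sorts. Dim members, such as Tubb2a-ps2, Tubg2, Ttll2 and Tubal3, could show only large changes.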
